A study of Mus musculus with 12 samples.

Results

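Cdkn1c, Cdkn1a, Cdkn1b, Cdkn2c and Cdkn2d encode proteins that block cyclin-dependent kinases (CDKs). They were chosen by symbol, and 5 of 14712 listed genes were therefore members; each symbol matched 1 row. The choice was made with the low Cdkn1c values of mutant growth plate already known, so Cdkn1c is described there without a test. RNA came from laser-captured growth plate cartilage and articular cartilage of mouse knees, and was measured by bulk RNA sequencing in 12 libraries. All mice were labelled as adults of 3 months. The mutant groups were Sox9fl/fl AcanCreERT2/+ and Sox8fl/fl Sox9fl/fl AcanCreERT2/+ mice, and the control groups were Sox9fl/fl and Sox8fl/fl Sox9fl/fl mice, so controls carried the floxed alleles too. Cre was driven from the aggrecan gene (Acan), which cartilage cells use, and the Acan level is therefore not an independent readout. The Sox9 mice were sampled at 7 and 14 days and the Sox8 Sox9 mice at 14 days (day 0 is not defined in the labels). The header of the deposited table names a tdT reporter allele for the Sox9 columns alone.

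Genotype and day formed 3 sets (Sox9 at day 7, Sox9 at day 14, Sox8 Sox9 at day 14), each with 1 mutant and 1 control library per tissue. Values below are given in that order of sets. Each of the 4 groups (growth plate mutant, growth plate control, articular mutant, articular control) thus had 3 libraries, which differ in alleles and day. The labels do not tie captured regions to animals, so p-values reflect only how much these libraries vary, and are too small if regions share an animal. Values are NRPKM, a form of RPKM (read count per transcript length and library size) whose further normalisation is not given. Setting levels of different genes side by side assumes that the scaling by length was kept. The lowest listed value was 1, shared by 1299 to 2823 genes per library, and read depth is unknown. Sox9 was lower in mutant than in control libraries in 5 of 6 matched pairs, by amounts that differed between tissues. On the log2(value + 1) scale, mutant minus control was -0.41, -1.17 and -3.06 in growth plate. In articular cartilage it was -0.42, -0.17 and 0.40. The articular pair of Sox8 Sox9 mice went the other way, with 282 NRPKM for Sox9 in the mutant against 213 NRPKM in its control. The other articular mutants had 304 and 309 NRPKM, and the other articular controls 408 and 349 NRPKM. For Sox8 the log2 differences were -1.96, -1.94 and -3.37 in growth plate and -1.97, -2.84 and -0.76 in articular cartilage, so Sox8 was lower in the Sox9 mutants too.

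CDK inhibitors stop the cell cycle by binding the kinases that drive it. Members of the CIP/KIP family, p57 (Cdkn1c), p21 (Cdkn1a) and p27 (Cdkn1b), bind complexes of cyclins with several CDKs. Members of the INK4 family, among them p18 (Cdkn2c) and p19 (Cdkn2d), bind Cdk4 and Cdk6 and keep them from D-type cyclins, so that the retinoblastoma protein stays active. In the growth plate, chondrocytes leave the cell cycle as they become prehypertrophic and hypertrophic; p57 is known to be made in those cells, and mice lacking it have defects of endochondral bone. Cdkn1c is an imprinted gene expressed from the maternal allele within the Kcnq1 domain.

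Upstream sequence is shown for 3 members: Cdkn1a, whose p53 site is a textbook example of how a CDK inhibitor gene responds to DNA damage, and Cdkn1b and Cdkn2c, whose levels differed between the control tissues (below). Entries were found for 4 of 5 members, Cdkn1c being the one without. Each sequence is the 250 bases 5′ of a start site in RefSeq on GRCm38.p6, 5′ to 3′ on the strand of the gene. Capitals mark a p53 full site at most 1 base off its consensus. The windows are chr17:29090729-29090978 on the + strand for Cdkn1a, chr6:134920151-134920400 on the + strand for Cdkn1b and chr4:109666757-109667006 on the - strand for Cdkn2c.
Cdkn1a: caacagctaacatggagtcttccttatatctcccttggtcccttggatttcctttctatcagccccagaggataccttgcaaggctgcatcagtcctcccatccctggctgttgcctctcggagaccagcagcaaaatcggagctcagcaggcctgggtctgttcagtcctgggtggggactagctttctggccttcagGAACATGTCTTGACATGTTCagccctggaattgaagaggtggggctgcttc
Cdkn1b: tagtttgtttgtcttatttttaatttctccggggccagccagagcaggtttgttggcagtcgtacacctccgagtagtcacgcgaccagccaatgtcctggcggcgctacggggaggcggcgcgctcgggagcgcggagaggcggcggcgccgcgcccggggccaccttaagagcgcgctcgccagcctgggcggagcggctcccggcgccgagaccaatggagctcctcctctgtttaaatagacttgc
Cdkn2c: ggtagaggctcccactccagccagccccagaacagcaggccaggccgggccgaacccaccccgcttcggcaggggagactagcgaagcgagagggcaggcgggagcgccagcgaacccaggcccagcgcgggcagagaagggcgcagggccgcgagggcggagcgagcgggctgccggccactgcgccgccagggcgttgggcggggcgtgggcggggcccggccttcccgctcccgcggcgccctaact
The site in the Cdkn1a window began 51 bases before that start. The window of the second Cdkn1a start (chr17:29093519-29093768, + strand) lay downstream of this site and held none. Of 32536 promoters of this length, 25 (0.0768%) held such a site. This tolerance was chosen after the exact consensus, found in 3 promoters (0.00922%), gave no match in a member. Both strands of the windows of the 4 members were also searched for the SOX core ACAAAG (held by 16.5% of all promoters), the SOX core ACAATG (held by 10.5% of promoters), the SOX core AACAAT (held by 9.35% of promoters), the forkhead motif GTAAACA (held by 3.17% of promoters), the E2F motif TTTCCCGC (held by 0.901% of promoters) and the E2F motif TTTGGCGC (held by 0.421% of promoters), and none was found. At least 1 SOX core occurred in 29.4% of all promoters. No match says only that these letters are not in these windows.

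Cdkn1c was the most abundant of the 5 genes in control growth plate and was an order of magnitude lower in mutant growth plate, where it lay below both articular groups. The gene (ENSMUSG00000037664) lies on mm10 chr7:143458339-143461050, - strand. It had 9.22, 10.1 and 9.69 NRPKM in mutant growth plate, against 126, 105.9 and 158.7 NRPKM in control growth plate. The groups were far apart, and the 3 mutant libraries lay within 1 NRPKM of each other. Means were 9.66 ± 0.43 NRPKM in mutants and 130.2 ± 26.6 NRPKM in controls (SD, n = 3 each). On the log2(value + 1) scale, which understates changes of low genes, the difference of mutant minus control was -3.60 over the sets, with -3.64, -3.27 and -3.90 in the single sets. That value ranked 17 from the lowest of 14712 genes. Since the gene was chosen with this difference known, these values are a description with no test.

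In articular cartilage Cdkn1c was low in both genotypes. It had 14.7, 13.6 and 11.2 NRPKM in mutant articular cartilage, against 15.6, 13.1 and 15.1 NRPKM in control articular cartilage, and the groups overlapped. The articular difference was -0.14 ± 0.18 (SE; 95% interval -0.55 to 0.26) on the log2 scale and did not pass the test (limma, Benjamini-Hochberg adjusted p = 0.811). It was 0.02 (adjusted p = 0.984) without the articular library labelled Sox8 Sox9 mutant, from the pair in which Sox9 was not lower in the mutant. Growth plate minus articular cartilage was 3.06 in controls (2.94, 2.92 and 3.31 by set) and -0.40 in mutants (-0.62, -0.40 and -0.19 by set), again as a description. The order of Cdkn1c levels was control growth plate, then control articular, mutant articular and mutant growth plate; control and mutant articular libraries overlapped, and the 3 mutant growth plate libraries lay below every other library. In control growth plate Cdkn1c exceeded 97.9 to 98.7% of listed genes, against 65.9 to 73.5% in mutant growth plate.

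**Figure D1:**
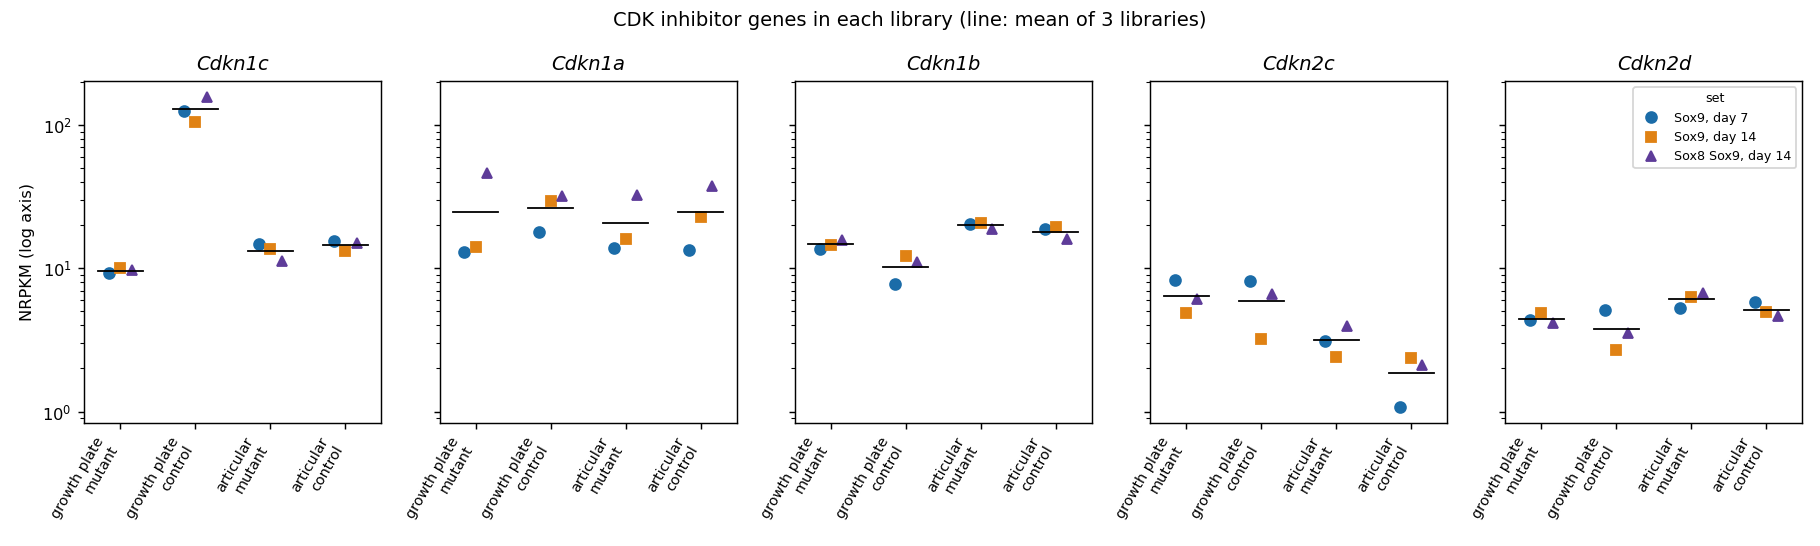
NRPKM (log axis) of each CDK inhibitor gene in the growth plate and articular libraries of mutant and control mice; each point is 1 library, its shape and colour give the set, and lines are means of 3 libraries. Cdkn1c stands at 105.9 to 158.7 NRPKM in control growth plate and at 9.22 to 15.6 NRPKM in the other 9 libraries.

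Cell type markers also differed between mutant and control growth plate, where 7.92% of all genes rose and 2.82% fell. The summed level of 10 chondrocyte marker genes was 1640 to 6228 NRPKM in mutant growth plate and 25200 to 40130 NRPKM in control growth plate, and 9 of the 10 fell (7 after quantile normalization). The list includes Sox9, the deleted gene, and Acan, the Cre locus; of the other 8 markers 7 fell. Summed neutrophil markers were 375 to 1388 NRPKM in mutants and 35.6 to 56.9 NRPKM in controls, with 6 of 8 higher. Summed osteoblast and osteocyte markers were 20810 to 26190 NRPKM in mutants and 6207 to 12780 NRPKM in controls, with 5 of 10 higher (4 under either scaling). Markers higher in mutants also included 3 of 8 for macrophages and osteoclasts, 2 of 5 for B cells and 1 of 6 each for erythroid cells, endothelial cells and adipocytes, and 0 of 6 for skeletal muscle. The erythroid and endothelial calls were lost under both scalings, quantile normalization and median ratio scaling, and the macrophage and osteoclast count was 2 under median ratio scaling. In control growth plate the B cell genes Cd79a, Cd79b and Pax5, the adipocyte genes Adipoq and Plin1 and the erythroid gene Ermap were at the lowest value in every library. Fewer cells of a type and less RNA per cell cannot be told apart in bulk samples, and the part of these cell types in the Cdkn1c difference was not tested. In articular cartilage summed chondrocyte markers were 11300 to 22780 NRPKM in mutants and 29530 to 35500 NRPKM in controls, most of it from the lubricin gene Prg4 (13300 ± 6190 NRPKM in mutants and 27200 ± 4520 NRPKM in controls, SD, n = 3 each). There 0 of 10 passed the test, and Col11a2 fell after quantile normalization.

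Cdkn1a encodes p21, the inhibitor induced by p53 after DNA damage (ENSMUSG00000023067, mm10 chr17:29090976-29100727, + strand). It had 13.1, 14.2 and 46.6 NRPKM in mutant growth plate, against 18.1, 29.4 and 32.1 NRPKM in control growth plate. It had 13.8, 16.2 and 32.7 NRPKM in mutant articular cartilage, against 13.6, 22.9 and 37.9 NRPKM in control articular cartilage. Mutant and control libraries overlapped in both tissues, and within every group the Sox9 day 7 library was the lowest and the Sox8 Sox9 day 14 library the highest. The difference of mutant minus control was -0.31 ± 0.24 (SE) in growth plate and -0.22 ± 0.24 in articular cartilage on the log2 scale, with adjusted p = 0.457 and 0.774 (limma). The sets did not share a direction in growth plate, at -0.44, -1.01 and 0.52. Among the 4 genes tested there, 0 passed, beside 10.7% of all genes in that comparison.

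**Figure D2:**
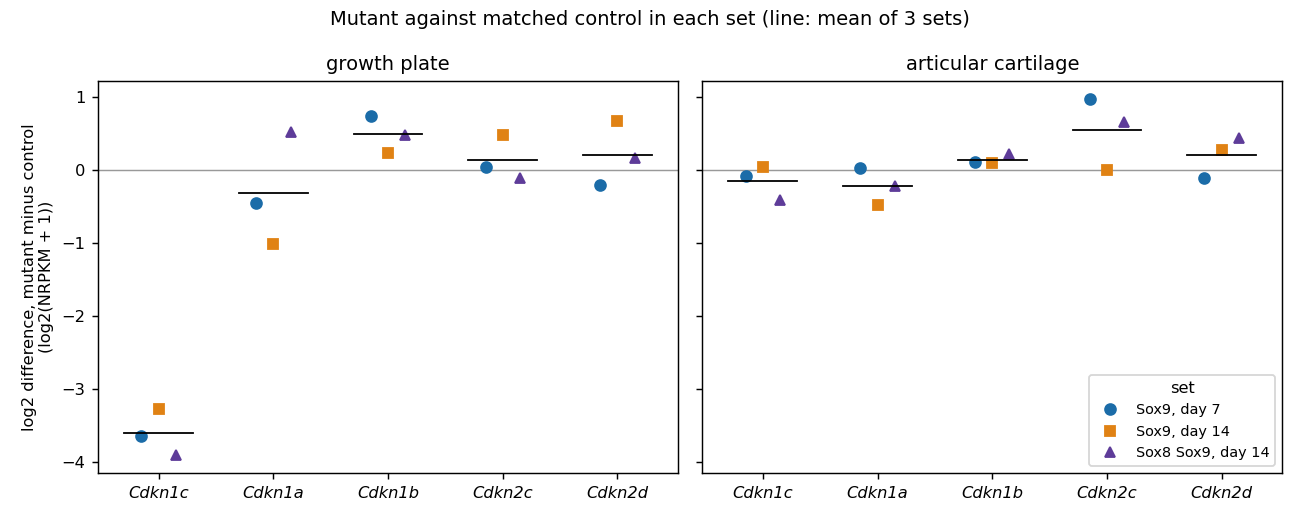
Difference of mutant minus matched control on the log2(NRPKM + 1) scale in each set (points) and its mean over 3 sets (lines), for growth plate and articular cartilage. Cdkn1c lies between -3.27 and -3.90 in growth plate; every other point lies between -1.01 and 0.98.

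Cdkn1b encodes p27, which holds cells in a resting state (ENSMUSG00000003031, mm10 chr6:134920401-134925513, + strand). It had 13.8, 14.5 and 15.9 NRPKM in mutant growth plate, against 7.77, 12.1 and 11.01 NRPKM in control growth plate. All 3 mutant libraries lay above all 3 controls. The share of all genes that separate in this way was not counted, here or for other members. For Cdkn1b the log2 difference was 0.49 ± 0.17 (SE; 95% interval 0.11 to 0.88), which did not pass the threshold after adjustment over all genes (limma, adjusted p = 0.0943). The difference was 0.28 after quantile normalization and 0.29 after median ratio scaling, beside a median of 0.20 over all genes on the deposited scale and 0.00 and 0.02 after these scalings. In articular cartilage it had 20.5, 20.8 and 18.9 NRPKM in mutants, against 18.8, 19.3 and 16.0 NRPKM in controls, with overlap and a log2 difference of 0.15 ± 0.17 (adjusted p = 0.786).

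Cdkn1b ran opposite to Cdkn1c between the control tissues. It averaged 10.3 ± 2.26 NRPKM in control growth plate and 18.04 ± 1.76 NRPKM in control articular cartilage (SD, n = 3 each), with no overlap. Growth plate minus articular was -0.77 ± 0.19 (SE) on the log2 scale in controls (adjusted p = 0.0279, limma), so Cdkn1b was lower in control growth plate. In that comparison 2 of the 4 tested members passed, beside 12.9% of all genes. In mutants the same difference was -0.42 ± 0.19 (adjusted p = 0.215), with 10.2% of all genes passing and 0 of the 4 tested members. The call in controls ended when either Sox9 day 7 control library was left out (adjusted p = 0.165 and 0.163). It also ended without the day 14 control libraries of Sox9 mice (0.0902 and 0.0904) or of Sox8 Sox9 mice (0.0668 and 0.0661), or without either Sox9 day 7 mutant library (0.0586 each). Tissues were compared within each genotype and day, so leaving out 1 library also took its partner out of the comparison. Fits without either library of a pair are therefore near copies. Without a Sox9 day 7 mutant library the difference stayed at -0.77. With the 6 control libraries fitted alone, adjusted p was 0.102, and in the Sox9 sets alone 0.0745.

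Cdkn2c encodes p18, an INK4 inhibitor of Cdk4 and Cdk6 (ENSMUSG00000028551, mm10 chr4:109660876-109667189, - strand). It had 8.35, 4.89 and 6.07 NRPKM in mutant growth plate, against 8.11, 3.20 and 6.59 NRPKM in control growth plate. In articular cartilage it had 3.09, 2.40 and 3.95 NRPKM in mutants, against 1.075, 2.38 and 2.12 NRPKM in controls. Levels overlapped between genotypes in growth plate, and in articular cartilage all 3 mutant libraries lay above the controls (2.40 against 2.38 NRPKM at the closest). The log2 differences were 0.14 ± 0.30 (SE; adjusted p = 0.824, limma) in growth plate and 0.55 ± 0.30 (adjusted p = 0.5) in articular cartilage. Between control tissues, growth plate minus articular was 1.24 ± 0.32, so Cdkn2c was higher in control growth plate (adjusted p = 0.0371). Its groups did not overlap, and in mutants the difference was 0.83 ± 0.32 (adjusted p = 0.158). The control articular levels lay near the lowest listed value of 1, so the size of the control difference depended on the value added before the log. It was 0.65 with 5 added and 1.41 with 0.5 added. By set it was 2.13, 0.31 and 1.28.

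The Cdkn2c call between control tissues also depended on which libraries were fitted. As for Cdkn1b, leaving out 1 library took its partner of the other tissue out of the comparison too. Without the articular or growth plate control of Sox9 mice at day 7, the log2 difference was 0.80 (adjusted p = 0.220 and 0.226). Without those of Sox8 Sox9 mice it was 1.22 (adjusted p = 0.147 and 0.148), and without those of Sox9 mice at day 14 it was 1.71 (adjusted p = 0.016 each). Leaving out either Sox9 mutant library of articular cartilage gave an adjusted p of 0.0708, and either Sox9 mutant library of growth plate 0.0713. The Sox8 Sox9 mutant library of growth plate gave 0.0505 when left out. Without a mutant library the log2 difference stayed at 1.24, and its p-value alone changed. Adjusted p was 0.182 in the Sox9 sets alone and 0.171 with the 6 control libraries alone.

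Cdkn2d encodes p19, another INK4 inhibitor of Cdk4 and Cdk6 (ENSMUSG00000096472, mm10 chr9:21288410-21291407, - strand). It had 4.35, 4.91 and 4.13 NRPKM in mutant growth plate, against 5.13, 2.69 and 3.56 NRPKM in control growth plate. It had 5.29, 6.27 and 6.78 NRPKM in mutant articular cartilage, against 5.79, 4.97 and 4.69 NRPKM in control articular cartilage. Genotypes overlapped in both tissues, with log2 differences of 0.22 ± 0.21 (SE; adjusted p = 0.550, limma) in growth plate and 0.21 ± 0.21 (adjusted p = 0.739) in articular cartilage. Among the 5 members, all tested in articular cartilage, 0 passed, beside 0.353% of all genes. Growth plate minus articular was -0.39 ± 0.19 in controls (adjusted p = 0.246) and -0.38 ± 0.19 in mutants (adjusted p = 0.292). The remaining INK4 genes, Cdkn2a and Cdkn2b, are not members and lay near the lowest value, with at most 3.70 NRPKM in any library, and 0 of 2 passed in any comparison; Cdkn2b passed between the control tissues after quantile normalization.

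The mutant effect in growth plate minus that in articular cartilage was -3.46 for Cdkn1c on the log2 scale (-3.56, -3.32 and -3.50 by set), given with no test. For the other members it was 0.35 ± 0.26 for Cdkn1b, -0.41 ± 0.45 for Cdkn2c, -0.09 ± 0.29 for Cdkn1a and 0.01 ± 0.27 for Cdkn2d (SE). Of these 4, 0 passed the test (limma, adjusted p 0.693 to 0.998), beside 0.184% of all genes.

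Adding the 5 levels shows how much of the total for these 5 genes Cdkn1c made up. Their sum was 48.7, 48.6 and 82.4 NRPKM in mutant growth plate, against 165.1, 153.4 and 211.9 NRPKM in control growth plate. Cdkn1c held 18.9, 20.7 and 11.8% of the sum in mutant growth plate and 76.3, 69.1 and 74.9% in control growth plate. Without Cdkn1c the sum was 39.5, 38.5 and 72.7 NRPKM in mutants, against 39.1, 47.4 and 53.3 NRPKM in controls, and the groups overlapped. In articular cartilage the share was 25.6, 23.0 and 15.2% in mutants and 28.4, 21.0 and 19.9% in controls. The total of all listed values also differed between libraries. It ran from 488388.9 NRPKM in Sox8 Sox9 mutant growth plate to 1350275.3 NRPKM in Sox9 day 14 mutant growth plate. The gene AC087541.1 alone held 24 to 45.1% of these totals.

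**Figure D3:**
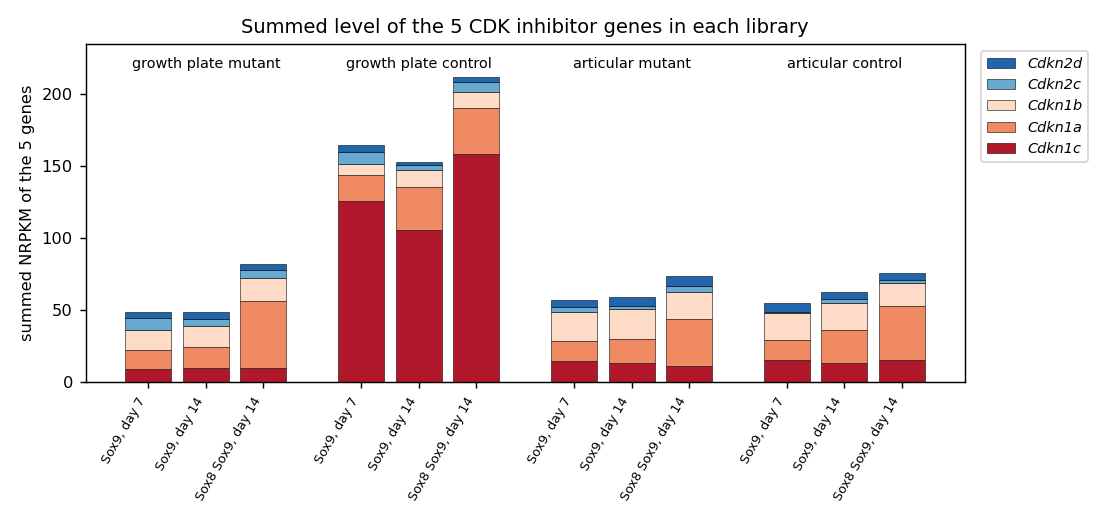
Summed NRPKM of the 5 genes in each library, stacked by gene. Control growth plate reaches 153.4 to 211.9 NRPKM, mostly from Cdkn1c, and the other libraries 48.6 to 82.4 NRPKM.

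The genes whose pattern was most like that of Cdkn1c were sought over the 12 libraries. Matn1, a cartilage matrilin, had the highest Pearson correlation on the log2 scale among 4163 genes with a mean of at least 10 NRPKM (r = 0.978, Spearman's rho 0.558). Its mean was 1.20 NRPKM in mutant growth plate and 47.7 NRPKM in control growth plate. Slc35e3 (r = 0.960, rho 0.692), Loxl2, a collagen-crosslinking lysyl oxidase (r = 0.960, rho 0.769), Hspg2, which encodes perlecan (r = 0.958, rho 0.364), and Il17b (r = 0.954, rho 0.486) followed. Matn1 and Il17b reached that mean only through control growth plate, with at most 2.80 and 3.06 NRPKM in any other library, so the filter and the Cdkn1c pattern fix that they are high there. The likeness rested on the 3 control growth plate libraries, since r over the other 9 was 0.061, 0.421, 0.558, -0.631 and -0.187 for these genes in that order. For the other members the closest genes were Rpl30 and Prcc for Cdkn1a (r = 0.909 and 0.902), Spna2 and Tcf4 for Cdkn1b (r = 0.981 and 0.962), Nin and Lgals3bp for Cdkn2c (r = 0.964 and 0.920), and Tpi1 and Scarna17 for Cdkn2d (r = 0.891 and 0.885). Scarna17 averaged 19.9 NRPKM in mutant articular cartilage, against 10.3 and 3.17 NRPKM in mutant and control growth plate and 8.64 NRPKM in control articular cartilage. It thus reached the mean of 10 NRPKM only through the group in which Cdkn2d was also highest. Libraries share tissue and set, so all these correlations are descriptions of likeness only.

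Of the cyclins, CDKs and the enzymes that modify them, 1 of 16 listed genes rose in mutant growth plate and 0 fell, beside 7.92% of all genes that rose and 2.82% that fell. The D-type cyclin gene Ccnd2 averaged 13.8 ± 3.81 NRPKM in mutant growth plate and 3.46 ± 1.26 NRPKM in control growth plate (SD, n = 3 each), a log2 difference of 1.73 (adjusted p = 0.00301, limma). Ccnd1, another D-type cyclin gene, averaged 9.83 NRPKM in mutants and 17.8 NRPKM in controls (-0.87, adjusted p = 0.0568). Cdk4, which INK4 proteins bind, averaged 16.8 NRPKM in mutants and 16 NRPKM in controls (0.04, adjusted p = 0.949, limma). Cdk6, which they bind too, averaged 12 NRPKM in mutants and 23.2 NRPKM in controls (-0.94, adjusted p = 0.0632). Ccnd1 and Cdk6 passed after quantile normalization (adjusted p = 0.0172 and 0.0373) and after median ratio scaling (0.0140 and 0.0373). The median of the list was 0.04, beside 0.20 over all genes, and turned to -0.18 and -0.16 under these scalings.

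The counts for other partners of the pathway in mutant growth plate stand beside 7.92% of all genes that rose and 2.82% that fell. Of 15 pocket protein, E2F and DREAM complex genes 2 rose, Rb1 (0.76) and Rbl2 (0.77), which encode retinoblastoma family proteins, and 0 fell. Of 8 ubiquitin ligase genes that act on CIP/KIP proteins 1 rose, the scaffold gene Cul1 (0.76). Of 17 p53 pathway genes 1 rose, Trp53inp1 (0.83), and 0 fell (Ccng1, named after its value was seen, fell after median ratio scaling). Trp53 itself averaged 6.15 NRPKM in mutants and 6.84 NRPKM in controls (-0.16, adjusted p = 0.684, limma), and Mdm2, a p53 target that degrades p53, 9.74 and 9.65 NRPKM in mutants and controls (0.02, adjusted p = 0.980). Of 8 transcription factors known to act on CDK inhibitor genes 1 rose, Foxo3 (0.84). The calls of Cul1, Trp53inp1 and Foxo3 ended under both scalings (adjusted p 0.0527 to 0.101) and that of Rb1 under quantile normalization (0.0815). Of 16 proliferation genes, such as Mki67, 0 passed, with a list median of 0.05. The medians of these lists were 0.33, 0.34, 0.02, -0.07 and 0.05 in the order given, against 0.20 over all genes. After quantile normalization they were 0.13, 0.10, -0.21, -0.29 and -0.20, and after median ratio scaling 0.16, 0.13, -0.18, -0.28 and -0.13. With 1 of the 12 libraries left out, the call held in 12 fits for Ccnd2, 8 for Rbl2, 7 for Rb1, 6 for Trp53inp1, and 2 each for Cul1 and Foxo3.

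Cdkn1c lies in the Kcnq1 domain, and of 6 listed neighbours there 1 fell in mutant growth plate (2.82% of all genes fell), namely Osbpl5 (-0.89, adjusted p = 0.0394, limma), and the list median was 0.08, or -0.02 and -0.09 under the scalings. That call held in 3 of 12 fits with 1 library left out. Of 9 growth plate maturation genes 6 fell and 0 rose, beside 2.82% and 7.92% of all genes, including Col10a1, the collagen of hypertrophic cells (-6.49), Ihh, the hedgehog ligand of prehypertrophic cells (-3.07), the channel gene Panx3 (-2.42) and the PTHrP receptor gene Pth1r (-1.37). The median of that list was -1.32. Of the 6, Alpl lost its call after quantile normalization (adjusted p = 0.11, limma), and its call held in 2 of 12 fits with 1 library left out. In articular cartilage, 0 genes of these lists passed other than Col10a1 (-3.32) and Scin (-1.74), which fell, beside 0.197% of all genes that fell.

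Between the control tissues, 3 cyclin and CDK genes were higher in growth plate and 2 lower, beside 4.26% of all genes that were higher and 8.63% that were lower. The split over all genes was 627 higher and 1269 lower on the deposited scale, 899 and 1003 after quantile normalization, and 913 and 1059 after median ratio scaling. Ccnd1 (2.17), Cdk6 (2) and the mitotic cyclin gene Ccnb2 (1.46) were higher, and Ccnd2 (-2.83) and the kinase gene Wee1 (-0.94) lower; Wee1 was named after its value was seen. Of the transcription factors Myc (1.08) was higher, and Foxo1 (-2.23), Klf4 (-1.05) and Smad3 (-0.89) were lower in growth plate. Foxo1 averaged 13.5 ± 0.77 NRPKM in control growth plate and 67 ± 8.07 NRPKM in control articular cartilage (SD, n = 3 each). Of the pocket protein list Rbl2 (-1.07) and Lin52 (-0.93) were lower, of the p53 list Plk2 (1.18) and Bax (0.69) were higher, and of the proliferation list Plk1 (1.21) was higher. Of the Kcnq1 domain Cd81 (-1.25) was lower, and of the maturation list 7 genes were higher and Scin was lower. Col10a1, the remaining gene of the maturation list, did not pass. It averaged 3640 ± 1280 NRPKM in control growth plate and 2890 ± 1530 NRPKM in control articular cartilage (SD, n = 3 each). Cell type markers differed between the control tissues too. Summed osteoblast and osteocyte markers were 6207 to 12780 NRPKM in control growth plate and 1989 to 4519 NRPKM in control articular cartilage (4 of 10 higher, 1 lower), and summed macrophage and osteoclast markers 629.8 to 932.9 NRPKM in control growth plate and 91.5 to 490.5 NRPKM in control articular cartilage (4 of 8 higher, 2 lower). Of endothelial markers 4 of 6 and of chondrocyte markers 6 of 10 were higher in growth plate, and 3 of 8 neutrophil markers, 1 of 5 B cell markers and the chondrocyte list gene Prg4 were lower. After quantile normalization 2 osteoblast and osteocyte markers and 5 chondrocyte markers were higher. Under either scaling 2 neutrophil markers were lower. The part of these cell types in the differences between tissues, those of Cdkn1b, Cdkn1c and Cdkn2c included, was not tested. The calls of Wee1, Lin52 and Smad3 ended under both scalings (adjusted p 0.0547 to 0.0903). With 1 library left out, calls held in all 12 fits for Ccnd1, Cdk6, Ccnd2, Foxo1, Rbl2 and Cd81, in 10 for Plk2, in 8 for Ccnb2, Myc, Klf4 and Plk1, in 6 for Wee1 and Lin52, in 4 for Bax and in 0 for Smad3. Leaving out either library of a genotype and day removed that pair from this comparison. The 12 fits are therefore near copies in pairs, not 12 separate checks, and some removed mutant pairs alone.

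**Figure D4:**
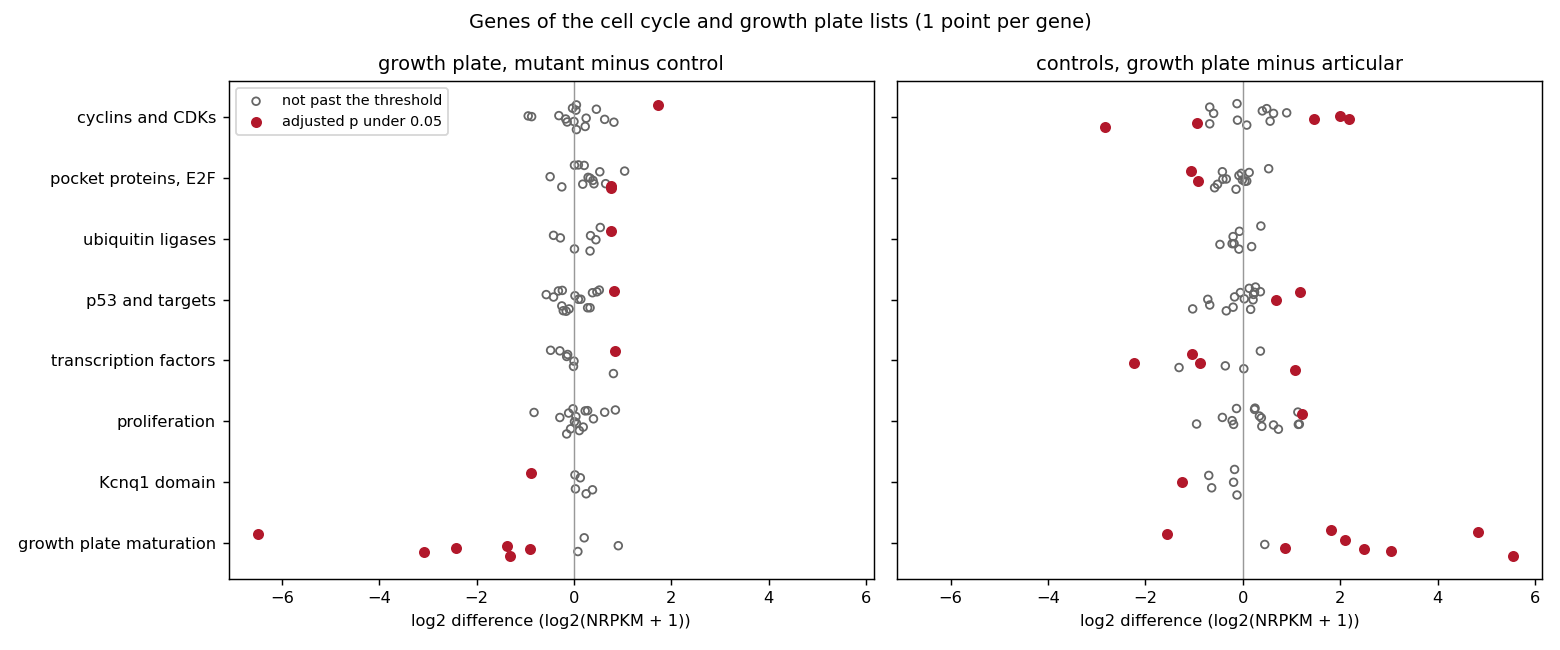
Log2 differences (log2(NRPKM + 1)) of the genes in 8 lists, 1 point per gene, for mutant minus control growth plate and for growth plate minus articular cartilage in controls; filled points passed an adjusted p of 0.05. Col10a1 at -6.49 and Ihh at -3.07 are the lowest 2 points in the mutant comparison, and Ccnd2 at 1.73 is the highest.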

How the data were processed

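Per the labels' protocols, frozen knees were sectioned, growth plate and articular cartilage were captured by laser, and a strand-preserving kit for small amounts of total RNA was used. The authors deposited 1 table of RPKM values, named NRPKM per the file headers (aligner, counter, use of strand and further normalisation: not given in the sources used here). Build mm10 is named in the submitters' processing notes. Overlapping genes on the opposite strand (AC167363.2 at Cdkn1a, Gm44732 at Cdkn1c) are not listed, and their reads may not be separated. Of 14712 identifiers 14293 matched the reference annotation. Depth is unknown, so 3 libraries per group limit precision.

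With limma 3.58.1 under R 4.3.3 (statmod 1.5.0; robust, mean trend), log2(value + 1) was modelled over all 12 libraries, with 4 groups and the set as a block for mutant effects; tissue comparisons, and the difference of mutant effects between tissues, had a block for each of the 6 combinations of set and genotype. Where blocks were genotype and day, leaving out 1 library also took its partner of the other tissue out of the comparison. Same-set libraries deviated together from their group means (correlations 0.119 to 0.52 in 18 of 18 pairs). Adjusted p is Benjamini-Hochberg over all genes, with a call under 0.05. Members, lists and tests were chosen with earlier results of these data known. Genes named were the members, up to 4 called genes per list with the largest difference, list genes stated as not passing or completing a count, and the genes most correlated with each member.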

Additional observations from a re-analysis of the deposited data

Results flagged for a closer look

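For Cdkn1c the difference of growth plate minus articular cartilage was negative in mutants in every set and positive in controls in every set, with the mutant effect lower in growth plate by a log2 difference of -3.46. The direction of this difference was known when the gene was chosen, and the difference was not tested.

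Panx3, a channel gene of maturing growth plate chondrocytes, had a mutant effect that differed between the tissues (-2.32 on the log2 scale, adjusted p = 0.0166, limma). It was at 1.68 NRPKM or below in every articular library, so an articular decrease could hardly be seen. Leaving out any 1 of the 12 libraries ended this call (adjusted p 0.0622 to 0.137). Each such fit also lost the partner library of the other tissue, so these fits are near copies in pairs.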

How the results depend on the processing

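Counts of called genes depended on the fit. In growth plate, 1580 genes were called for mutant minus control, against 945 without the replicate block (the set term), 274 in the Sox9 sets alone, 0 with the 6 compared libraries alone (limma; 2755 at an unadjusted p under 0.05) and 658 to 1927 with 1 library left out. In articular cartilage 52 became 29 without the block, 12 with a block for each matched pair, 24 in the Sox9 sets, 2 with 6 libraries and 6 to 101 with 1 library left out. For growth plate minus articular, 1896 in controls became 1058 in the Sox9 sets, 866 with 6 libraries and 894 to 2068 with 1 left out, and 1501 in mutants became 759, 781 and 796 to 1362. For the difference of mutant effects, 27 became 0 in the Sox9 sets (limma; 1270 at an unadjusted p under 0.05) and 0 to 4 with 1 left out. The split of growth plate calls was 1165 higher and 415 lower as deposited, 606 and 679 after quantile normalization, and 726 and 741 after median ratio scaling. Cdkn1c in growth plate stayed between -3.82 and -3.19 under every alternative run. Leaving out the block changed no member's call. A count test was not run, since the values are not counts, and a mean of at least 5 NRPKM left Cdkn2c and Cdkn2d without a value.

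Differences that changed sign, none past the threshold, were these; the cause was not tested. In growth plate, mutant minus control, Cdkn2c was -0.11 and Cdkn2d -0.04 after quantile normalization, Cdkn2c -0.05 after median ratio scaling, and Cdkn2c -0.14 to 0.38 with 1 library left out (also -0.03). There Mdm2 was -0.21 and -0.18 under these scalings and -0.11 to 0.12 with 1 library left out (also -0.06), and Trp53 -0.32 to 0.06. In articular cartilage Cdkn1b was 0.00 after median ratio scaling and Cdkn1c -0.23 to 0.02 with 1 library left out. Cdkn1a between mutant tissues was -0.13 in the Sox9 sets and -0.13 to 0.21 with 1 library left out. For the difference of mutant effects Cdkn1a was -0.30 to 0.04 and Cdkn2c -0.87 to 0.04 with 1 library left out. Cdkn2d was -0.02 with 5 added, -0.07 and -0.04 under the scalings, and -0.15 to 0.13 with 1 library left out.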
